A study of Pyrus pyrifolia with 6 samples.

Results

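Described here are 3 genes of the skin of Cuiguan pear, a sand pear (Pyrus pyrifolia) on whose skin cork forms in patches, a change called russeting. LOC103935642 and LOC103942961 are annotated in the deposited table as glycerol-3-phosphate acyltransferase 5-like (GPAT5-like), and LOC103931004 as fatty acyl-CoA reductase 3-like. They were picked by name out of the 42933 genes of the table because their counts differed between untreated and bagged fruit, so that difference is given as a description and is not tested.

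The series holds 6 RNA sequencing libraries of fruit skin, 3 from untreated fruits and 3 from fruits grown in paper bags. All fruits came from 6-year-old trees of 1 orchard and were picked 95 days after full bloom. The bagged fruits carried a single-layer white bag from day 20 and a double-layer yellow-white bag from day 40. The labels call the replicates biological without giving the number of fruits or trees in each, so errors and p-values measure the spread between these libraries.

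Suberin, the polyester of cork, is built from fatty acids, their omega-hydroxy derivatives, fatty alcohols, glycerol and ferulic acid. GPAT enzymes of land plants that act outside the chloroplast join an acyl chain from acyl-CoA to glycerol-3-phosphate. In Arabidopsis GPAT5 is needed for suberin of the root and seed coat, whereas GPAT4, GPAT6 and GPAT8 serve cutin, the polyester of the smooth cuticle. Fatty acyl-CoA reductases turn acyl-CoA into primary fatty alcohols. In Arabidopsis FAR1, FAR4 and FAR5 make alcohols of suberin, and FAR3, also named CER4, makes alcohols of the stem wax. The number in the annotation of LOC103931004 is therefore that of the wax enzyme, and the number alone assigns the pear gene to neither polymer.

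Library totals lay between 15764049 and 19546285 counts. Principal component 1 of the log2 CPM values (CPM, counts scaled to a common library total) carried 46.81% of the variance. It placed untreated replicate 3 at -23.98, nearer to the bagged libraries (40.09 to 50.34) than the other untreated libraries were (-51.97 and -59.8). Epidermal regulator genes (MERISTEM L1, HDG, ANTHOCYANINLESS 2 and GLABRA 2 types) had a count in 12 of 15 cases (2 MERISTEM L1-like genes and 1 HDG11-like gene were at 0), and their summed level ranged from 141 to 150 CPM in untreated and from 149 to 172 CPM in bagged skin. Phloem genes (SIEVE ELEMENT OCCLUSION and PHLOEM PROTEIN 2 types) had a count in 10 of 12 cases, 2 PHLOEM PROTEIN 2 types being at 0, and summed to between 48.6 and 117 CPM in untreated and between 52.3 and 57.9 CPM in bagged skin. Secondary wall genes, the mark of stone cells (cellulose synthase subunits 4, 7 and 8, fasciclin-like 11 and 12, COBRA-like 4), summed to between 3.51 and 7.4 CPM in untreated and between 3.08 and 3.54 CPM in bagged skin, with 2 fasciclin-like 12 genes of the 15 at 0. Of the 10, 7 and 2 tested genes of these lists 0 passed the edgeR test described below. At an unadjusted p under 0.05, 4 epidermal genes were higher, 1 phloem gene was higher and 1 lower, and DESeq2 called 2 epidermal genes higher and 1 phloem gene lower. The part of these cell types in the values below was not tested.

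The GPAT5-like gene LOC103935642 lies on the minus strand of scaffold NW_008988054.1, from 332345 to 334268. It had 272, 453 and 184 counts in untreated replicates 1 to 3 and 25, 36 and 68 counts in bagged replicates 1 to 3. Scaled to CPM, with TMM factors for library composition, these are 15.7, 23.0 and 11.4 in untreated and 1.51, 2.06 and 3.55 in bagged skin. Every untreated library lay above every bagged one, the lowest untreated value being 3.21 times the highest bagged value. The mean was 16.7 ± 5.88 CPM (SD, n = 3) in untreated and 2.37 ± 1.06 CPM in bagged skin. The fitted log2 fold change, bagged over untreated, was -2.80 ± 0.37 (SE).

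The second GPAT5-like gene, LOC103942961, lies on the plus strand of scaffold NW_008988057.1, from 1492347 to 1494368. Its counts were 232, 346 and 157 in untreated replicates 1 to 3 and 19, 31 and 54 in bagged replicates 1 to 3. In CPM it stood at 13.4, 17.6 and 9.71 in untreated and at 1.15, 1.77 and 2.82 in bagged skin, again without overlap. The lowest count of the 3 genes, 19 in bagged replicate 1, has an exact Poisson 95% interval of 11.4 to 29.7, which covers counting error only. The group means were 13.6 ± 3.93 and 1.91 ± 0.845 CPM (SD, n = 3), and the fitted log2 fold change was -2.81 ± 0.35 (SE).

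The reductase gene LOC103931004 lies on the minus strand of scaffold NW_008988530.1, from 286450 to 293323. It had 461, 808 and 439 counts in untreated replicates 1 to 3 and 94, 118 and 142 counts in bagged replicates 1 to 3. These are 26.6, 41.0 and 27.2 CPM in untreated and 5.68, 6.75 and 7.42 CPM in bagged skin. The groups again did not overlap, and the lowest untreated value was 3.59 times the highest bagged value. The means were 31.6 ± 8.17 and 6.62 ± 0.875 CPM (SD, n = 3), and the fitted log2 fold change was -2.26 ± 0.20 (SE), closer to 0 than those of both GPAT5-like genes, a gap that was not tested.

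In all 3 genes every bagged library lay below every untreated one, which also held for 11% of the 25139 genes tested. By the call rule used for other genes (an adjusted p below 0.05 in edgeR's quasi-likelihood test, with Benjamini-Hochberg adjustment), 1.69% of those genes were lower, 0.971% were higher and 2.67% were called in either direction. The 3 genes were chosen on this contrast, so nothing is read from their part in these shares. In the authors' deposited table their log2 fold changes are -2.81, -2.81 and -2.25, in the order LOC103935642, LOC103942961 and LOC103931004. Without untreated replicate 3, the untreated library nearest to the bagged ones, the log2 fold changes fitted here lay between -3.02 (LOC103935642) and -2.35 (LOC103931004). In bulk skin, fewer suberising cells and less transcript per cell cannot be told apart.

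**Figure D1:**
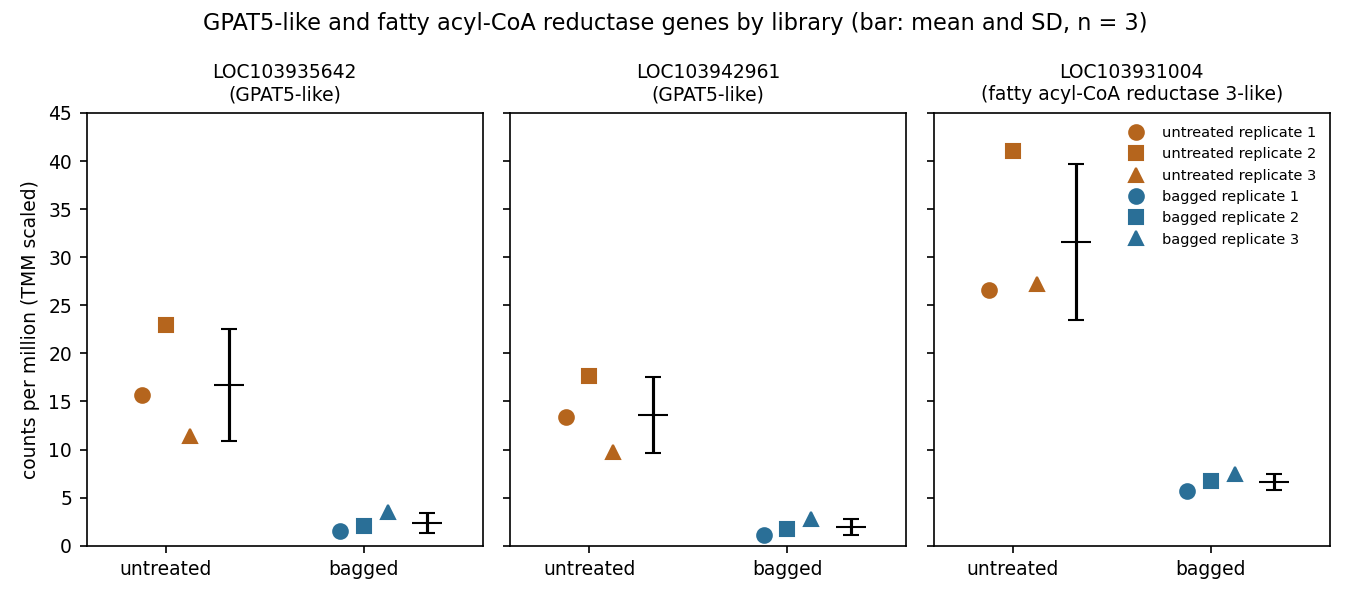
Level of each of the 3 genes in each library, in CPM (TMM scaled) on a linear axis from 0. Brown symbols are untreated and blue symbols bagged libraries, and the black bar gives mean and SD (n = 3). In every panel all 3 bagged libraries lie below the lowest untreated one, and untreated replicate 2 and bagged replicate 3 are the highest of their groups.

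Per length, in the authors' FPKM (fragments per kilobase of transcript, scaled to library depth), the 3 genes stood at 9.97 ± 3.54 for LOC103935642, 8.54 ± 2.51 for LOC103942961 and 16.7 ± 4.38 for LOC103931004 in untreated skin (SD, n = 3). In bagged skin the same genes stood at 1.42 ± 0.631, 1.21 ± 0.533 and 3.51 ± 0.466 FPKM. In untreated skin this placed them above 55.6%, 51.7% and 68.8% of the tested genes by mean FPKM, and in bagged skin above 17.8%, 15.4% and 33.1%. LOC103931004 had the highest FPKM of the 3 genes in every library.

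The 2 GPAT5-like genes kept nearly the same proportion in every library. The FPKM of LOC103935642 over that of LOC103942961 was 1.11, 1.24 and 1.11 in untreated replicates 1 to 3 and 1.25, 1.10 and 1.19 in bagged replicates 1 to 3, so the groups overlap. Their listed transcript lengths are 1669 and 1583 bases within spans of 1924 and 2022 bases, and neither span overlaps another listed gene. How the authors' counting treated reads that match both genes is not known here. Any reads that match both could be split between them, so the single level of each is uncertain. The identity of the 2 sequences was not computed, and the part of shared reads was not tested.

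The reductase did not keep a fixed proportion to them. Its FPKM over the summed FPKM of both GPAT5-like genes was 0.791, 0.876 and 1.11 in untreated replicates 1 to 3 and 1.85, 1.52 and 1.01 in bagged replicates 1 to 3. Bagged replicates 1 and 2 lay above all untreated libraries and bagged replicate 3 lay among them. Bagged replicate 3 is also the bagged library in which both GPAT5-like genes were highest.

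Within groups, the libraries fell in similar order for the 3 genes. Relative to the mean of its group on the log2 CPM scale, LOC103935642 deviated by -0.03, 0.52 and -0.49 in untreated replicates 1 to 3 and by -0.53, -0.11 and 0.64 in bagged replicates 1 to 3. LOC103942961 deviated by 0.02, 0.41 and -0.44 and by -0.60, -0.02 and 0.62. LOC103931004 deviated by -0.22, 0.41 and -0.19 and by -0.21, 0.04 and 0.17, with a smaller spread among bagged libraries. The biological coefficient of variation estimated by edgeR was 30.4% and 29.2% for the GPAT5-like genes and 18.6% for the reductase, against 21.8%, 24.2% and 17.3% for genes of like abundance.

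Other suberin genes (cytochromes P450 86A1 and 86B1, omega-hydroxypalmitate O-feruloyl transferases and the transporters ABCG6 and ABCG20) showed a similar order of libraries. The list also matched an ABCG16-like gene, LOC103946918, too scarce to be tested. Untreated replicate 2 was the highest untreated library in 13 of the 14 tested, and bagged replicate 3 the highest bagged library in 13. Both held together in 12 of 14, or 85.7%, against 10.9% of all tested genes and 45.1% of all genes called lower. All 10 that fell in bagged skin had untreated replicate 2 highest, untreated replicate 3 lowest, bagged replicate 3 highest and bagged replicate 1 lowest. The GPAT5-like genes had this order too, whereas LOC103931004 was lowest in untreated replicate 1 (26.6 CPM, against 27.2 CPM in untreated replicate 3). Of the 8 other tested GPAT genes with a number, 2 had both untreated replicate 2 and bagged replicate 3 highest.

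**Figure D2:**
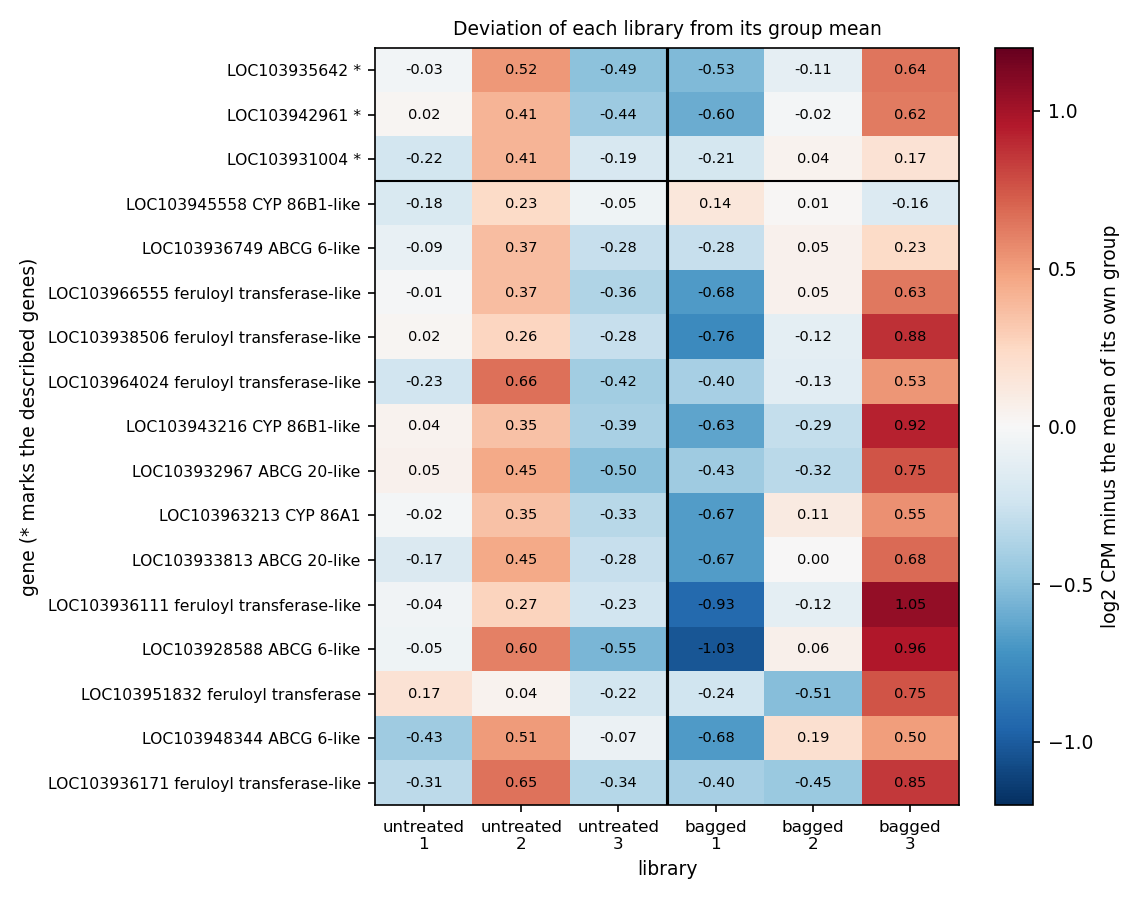
Deviation of each library from the mean of its own group in log2 CPM, for the 3 described genes (top rows, marked *) and the 14 other tested suberin genes, with libraries in columns and the value printed in each cell. Red is above and blue below the group mean. Untreated replicate 2 is positive in every row (0.04 to 0.66), and bagged replicate 3 is positive in every row but that of LOC103945558 (-0.16).

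Of those 14 suberin genes 10 fell in bagged skin and 0 rose, also 0 at an unadjusted p under 0.05 and with DESeq2, which called 12 lower. The median over the 14 was -2.89 on the log2 scale, against -0.01 for all tested genes, of which 1.69% were lower and 0.971% higher. The patterns behind this list were written with earlier results of these data known. The transporter genes LOC103932967 and LOC103933813 (ABCG20-like; ABCG20 is a transporter needed for suberin in Arabidopsis) fell by 3.25 ± 0.37 and 3.17 ± 0.35 on the log2 scale (SE; edgeR adjusted p = 0.00872 and 0.00821). LOC103963213, the cytochrome P450 86A1 gene for an omega-hydroxylase of fatty acids, fell by 3.24 ± 0.31 (adjusted p = 0.00602). LOC103945558, a cytochrome P450 86B1-like gene with the highest FPKM of the list when averaged over all 6 libraries but not in untreated skin, behaved otherwise. It had 24.8 ± 3.81 FPKM in untreated and 26.9 ± 2.82 FPKM in bagged skin, with a log2 fold change of 0.11 ± 0.13 (adjusted p = 0.744). The other cytochrome P450 86B1-like gene, LOC103943216, named after its values were seen, fell from 17.5 ± 4.44 to 1.98 ± 1.22 FPKM. Its log2 fold change was -3.14 ± 0.40 (edgeR adjusted p = 0.0115). With single libraries left out, 7 to 10 genes of this list fell and 0 rose.

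Most relatives of the GPAT5-like genes did not pass the test, as held for most tested genes, of which 2.67% were called in either direction. Descriptions naming a glycerol-3-phosphate acyltransferase matched 32 genes, of which 10 are 1-acyl-glycerol-3-phosphate acyltransferases, a separate step of membrane lipid synthesis, 3 are chloroplast genes and 19 carry a GPAT number. Apart from the GPAT5-like genes, 16 were tested, of which 1 fell and 0 rose in edgeR, with the median at -0.18 on the log2 scale. At an unadjusted p under 0.05, 2 were lower and 2 higher, and DESeq2 called 2 lower and 0 higher. The gene that fell was LOC103936053, a GPAT3-like gene, which stood at 8.57, 12.4 and 4.76 FPKM in untreated replicates 1 to 3 and at 1.28, 1.59 and 1.26 FPKM in bagged replicates 1 to 3. Its log2 fold change was -2.64 ± 0.35 (edgeR adjusted p = 0.0129), and the call was lost without bagged replicate 1 (adjusted p = 0.0624) or 2 (adjusted p = 0.0505). LOC103956873, described as a probable GPAT3 and named after its values were seen, had 27, 100 and 21 counts in untreated and 3, 10 and 12 counts in bagged replicates 1 to 3, and missed the threshold (-2.50 ± 0.67, adjusted p = 0.113). DESeq2 placed it past the threshold (adjusted p = 0.00935).

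The tested GPAT genes numbered after the cutin enzymes of Arabidopsis did not pass the test. LOC103932259, a probable GPAT8 and the most abundant of the family, had 45.7, 56.9 and 55.5 FPKM in untreated and 42.6, 52.4 and 72.7 FPKM in bagged replicates 1 to 3, so the groups overlap. Its log2 fold change was 0.08 ± 0.19. The GPAT6-like gene LOC103959575 had 12.2 ± 1.97 FPKM in untreated and 17.8 ± 4.26 FPKM in bagged skin (log2 fold change 0.54 ± 0.20, edgeR adjusted p = 0.239). A further probable GPAT8, LOC103957402, had 1.02 ± 0.361 and 1.89 ± 0.369 FPKM (SD, n = 3), with a log2 fold change of 0.89 ± 0.38 (adjusted p = 0.31).

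The GPAT3-like genes LOC103936673, LOC103937258 and LOC103962411 had log2 fold changes of 0.21 ± 0.18, -0.26 ± 0.13 and -0.34 ± 0.15, none past the threshold. The named 1-acyl-glycerol-3-phosphate acyltransferase genes LOC103936879, LOC103927748, LOC103955987, LOC103949063 and LOC103932315 and the chloroplast genes LOC103962491, LOC103936033 and LOC103940137 had log2 fold changes between -0.35 and 0.13, and none passed. In untreated skin the GPAT5-like genes thus had levels near that of LOC103936053 (given above), below the probable GPAT8 LOC103932259 (52.7 ± 6.13 FPKM; SD, n = 3) and the GPAT3-like genes LOC103936673 (18.2 ± 4.41 FPKM) and LOC103937258 (17.0 ± 1.59 FPKM). In untreated skin the means of LOC103935642, LOC103942961 and LOC103936053 lay within 1 SD of each other, and that of LOC103959575 lay above them with libraries that overlap theirs.

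As a share of the summed FPKM of the 19 numbered GPAT genes, the 2 GPAT5-like genes held 13.1%, 16.9% and 10.1% in untreated replicates 1 to 3 and 1.69%, 1.91% and 2.72% in bagged replicates 1 to 3. The summed FPKM itself was 136 ± 10.2 in untreated and 121 ± 23.7 in bagged skin (SD, n = 3), with overlap between the groups. Over all 32 matched genes the share was 8.83 ± 2.59% in untreated and 1.35 ± 0.429% in bagged skin.

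**Figure D3:**
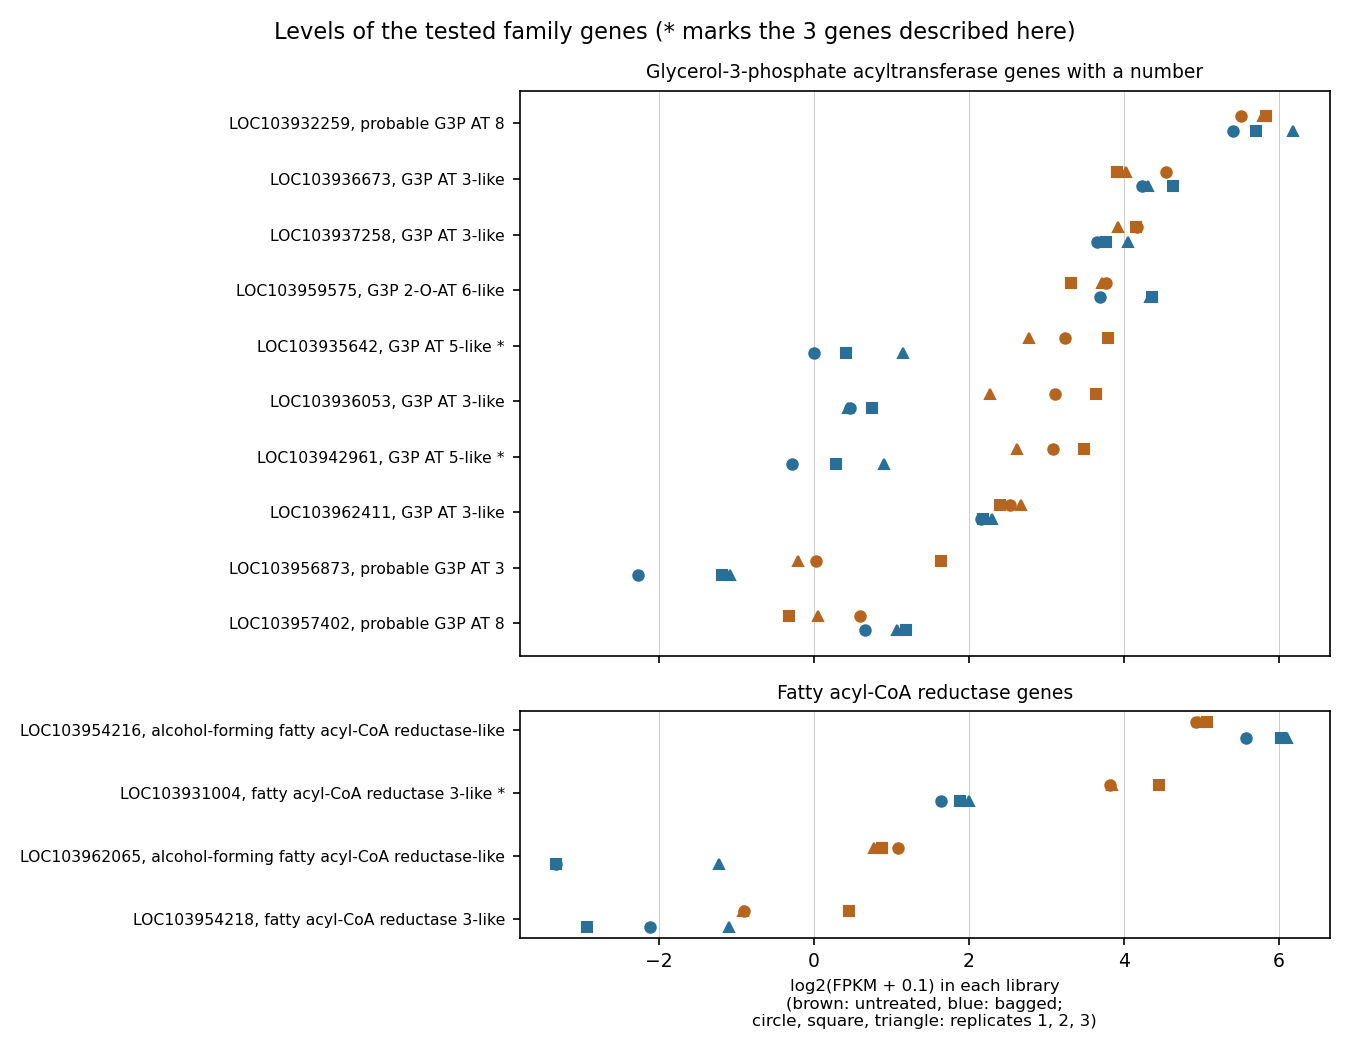
FPKM of each tested family gene in each library on a log2(FPKM + 0.1) scale, numbered GPAT genes above and fatty acyl-CoA reductase genes below, with untreated libraries in brown and bagged ones in blue. The described genes (marked *) and LOC103936053 are clearly separated between groups, whereas the probable GPAT8 gene LOC103932259 overlaps at 42.6 to 72.7 FPKM. Groups are also without overlap for LOC103956873, LOC103962411, LOC103962065 and LOC103954218, lower in bagged skin, and for LOC103957402 and LOC103954216, higher in bagged skin.

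Among the 7 genes described as fatty acyl-CoA reductases, the most abundant was higher in bagged skin. LOC103954216, described as alcohol-forming fatty acyl-CoA reductase-like (scaffold NW_008988150.1, 523090 to 529845), had 30.4, 33.6 and 31.3 FPKM in untreated and 47.9, 65.3 and 69.0 FPKM in bagged replicates 1 to 3. It rose by 0.93 ± 0.14 on the log2 scale (edgeR adjusted p = 0.0175), a call lost without untreated replicate 1 (adjusted p = 0.0699), untreated replicate 2 (0.0522) or bagged replicate 2 (0.0646). It was the only one of the 3 other tested reductases past the threshold (2.67% of all tested genes were called). The median log2 fold change of these 3 was -1.98. At an unadjusted p under 0.05, 2 were lower and 1 higher, and DESeq2 called 0 lower and 1 higher. LOC103931004 held 30.0%, 37.0% and 30.0% of the summed reductase FPKM in untreated replicates 1 to 3 and 5.89%, 5.20% and 5.34% in bagged replicates 1 to 3. The summed FPKM of the family was 51.2 ± 6.69 in untreated and 64.6 ± 11.9 in bagged skin (SD, n = 3).

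The other tested reductases were scarce, and they are named after their values were seen. LOC103962065, alcohol-forming fatty acyl-CoA reductase-like, had 61, 60 and 46 counts in untreated replicates 1 to 3, none in bagged replicates 1 and 2 and 11 in bagged replicate 3. Its log2 fold change was -3.91 ± 0.88 (SE), and it missed the threshold (edgeR adjusted p = 0.0681). It passed without bagged replicate 3 (adjusted p = 0.00825), and also with limma on log2(FPKM + 1) and log2(FPKM + 0.1) (adjusted p = 0.0111 and 0.0369). LOC103954218, annotated like LOC103931004 as fatty acyl-CoA reductase 3-like, had 14, 46 and 13 counts in untreated and 4, 1 and 13 in bagged replicates 1 to 3. Scaled to CPM its groups did not overlap (lowest untreated 0.804, highest bagged 0.679). The log2 fold change of LOC103954218 was -1.98 ± 0.76 (SE; edgeR adjusted p = 0.259). It lies with LOC103954216 and LOC103954217 within 28893 bases of scaffold NW_008988150.1, and LOC103954217 had counts in untreated replicate 2 alone (11).

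**Figure D4:**
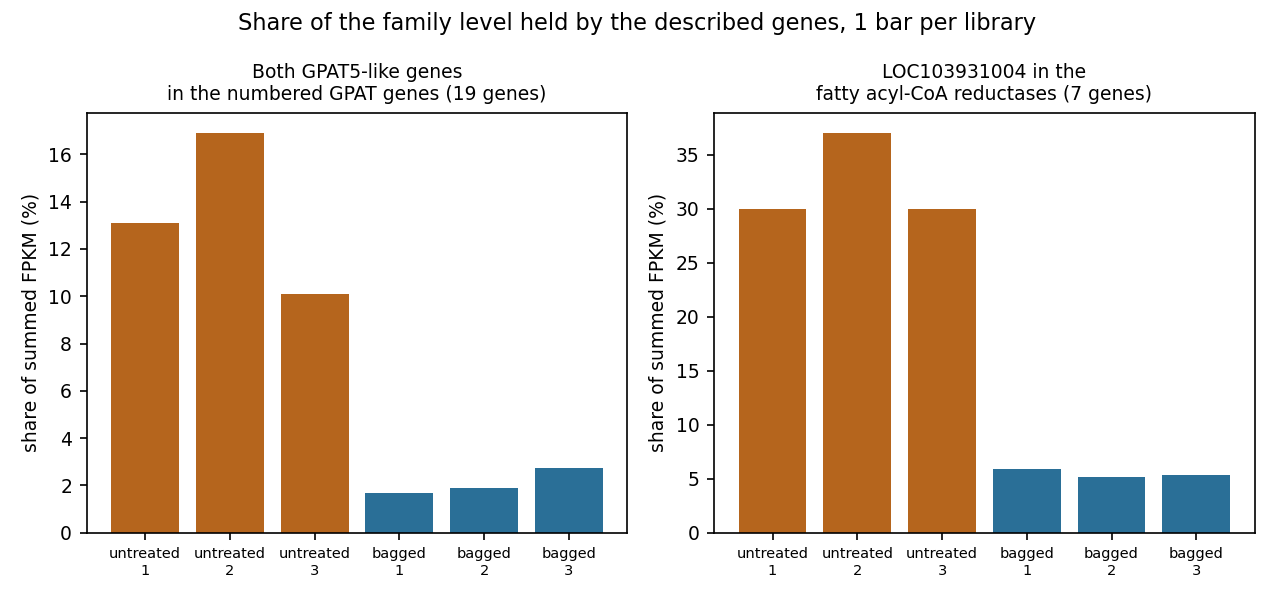
Share of the summed FPKM of each family held by the described genes, 1 bar per library on axes from 0. Both GPAT5-like genes together hold 10.1% to 16.9% of the 19 numbered GPAT genes in untreated and 1.69% to 2.72% in bagged libraries, and LOC103931004 holds 30.0% to 37.0% and 5.20% to 5.89% of the 7 reductases.

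Genes matched for glycerol-3-phosphate supply and acyl-CoA synthetases included few called ones, as did all tested genes (2.67% called in either direction). Glycerol-3-phosphate dehydrogenases and glycerol kinases, which make or use glycerol-3-phosphate, were matched together with 9 diacylglycerol kinases, a different enzyme whose name contains the pattern. Of these 21 genes 0 passed the edgeR test, and their median log2 fold change was -0.02. At an unadjusted p under 0.05, all 4 that were higher were diacylglycerol kinases, whereas of the 12 dehydrogenases and glycerol kinases 2 were lower and 0 higher, with a median of -0.20. DESeq2 called 1 of these 12 lower. The 3 glycerol kinase genes had log2 fold changes of -1.09 ± 0.25 (LOC103927433), -0.44 ± 0.14 (LOC103928923) and -0.28 ± 0.35 (LOC103930852), with edgeR adjusted p of 0.0699, 0.16 and 0.764. They are named after their values were seen. The most abundant was one of the diacylglycerol kinases, LOC103942056, at 48.9 ± 1.44 and 59.2 ± 3.41 FPKM (SD, n = 3). Of 11 tested long chain acyl-CoA synthetases, which activate fatty acids, 1 rose and 0 fell. At an unadjusted p under 0.05, 2 were lower and 2 higher, and DESeq2 called 1 lower and 2 higher. The one that rose was LOC103953111, annotated as long chain acyl-CoA synthetase 1, with 22.7 ± 2.43 FPKM in untreated and 35.5 ± 3.16 FPKM in bagged skin (log2 fold change 0.64 ± 0.11, edgeR adjusted p = 0.0268). This call held without untreated replicate 3 and was lost without any other library (adjusted p up to 0.0917). The synthetase with the highest FPKM averaged over all 6 libraries, LOC103951800, had a log2 fold change of 0.04 ± 0.08.

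Genes of acyl chain elongation, which make very long acyl-CoA, went both ways, with 4 of 34 tested higher, 2 lower and a median of 0.19 on the log2 scale. Over all tested genes 0.971% were higher and 1.69% lower. The patterns also matched a few mitochondrial and peroxisomal enoyl-CoA reductases. The 3-ketoacyl-CoA synthase 10-like gene LOC103952998 rose from 4.28 ± 0.283 to 11.5 ± 1.16 FPKM (SD, n = 3), a log2 fold change of 1.42 ± 0.12 (edgeR adjusted p = 0.0058). A second 3-ketoacyl-CoA synthase 10-like gene, LOC103949661, had the highest FPKM of the list averaged over all 6 libraries, though not in untreated skin. It stood at 50.9 ± 12.3 FPKM in untreated and 102 ± 27.4 FPKM in bagged skin (SD, n = 3) and missed the threshold (edgeR adjusted p = 0.0786). LOC103947136 (3-ketoacyl-CoA synthase 6) rose by 1.53 ± 0.25 and LOC103966995 (3-ketoacyl-CoA synthase 4-like) fell by 2.79 ± 0.52, with adjusted p of 0.0234 and 0.0373. Leaving out either of untreated replicates 1 and 2 or of bagged replicates 1 and 2 ended both calls, and leaving out bagged replicate 3 ended that of LOC103947136 (adjusted p up to 0.0788 and 0.136). The span of LOC103947136 (1079320 to 1120567) encloses LOC103947140 (1079692 to 1081354, same strand), a 3-ketoacyl-CoA synthase 6-like gene named after its values were seen. LOC103947140 was also called higher (1.17 ± 0.20, edgeR adjusted p = 0.0296). The part of shared reads in these 2 calls was not tested.

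Of the 9 tested genes for acyltransferases that esterify fatty alcohols, 1 rose and 1 fell, and they lie near each other on scaffold NW_008988463.1. The shares over all tested genes were 0.971% higher and 1.69% lower. LOC103928845, WSD1-like (166969 to 172011), of the wax ester synthase family, rose from 4.55 ± 0.913 to 9.88 ± 2.30 FPKM (SD, n = 3; edgeR adjusted p = 0.0466). Its call held without bagged replicate 1 and ended when any of the other libraries was left out (adjusted p up to 0.13). It also ended with library size alone (edgeR adjusted p = 0.0511) and in the limma fits with 1 and 0.1 added to the FPKM (adjusted p = 0.0537 and 0.0565). LOC103928843, WSD1-like (184704 to 215476), had 31, 25 and 15 counts in untreated replicates 1 to 3 and 0, 0 and 1 in bagged replicates 1 to 3 (adjusted p = 0.0131), a call lost without bagged replicate 1 or 2 (adjusted p up to 0.057). Its span overlaps that of LOC103928844 (WSD1-like, 180083 to 189270, same strand), named for its position and too scarce to be tested. The part of shared reads was not tested. The most abundant of the list, LOC103941920, also WSD1-like, had a log2 fold change of -0.01 ± 0.09.

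Cutin genes outside the GPAT family had 3 of 12 tested higher, 1 lower and a median of 0.58. Over all tested genes 0.971% were higher and 1.69% lower, with a median of -0.01. The acyltransferase gene LOC103932242 (DCR-like), the oxidoreductase gene LOC103966469 (HOTHEAD) and LOC103963865 (cytochrome P450 86A22) rose by 1.51 ± 0.25, 1.57 ± 0.25 and 1.62 ± 0.32 on the log2 scale (edgeR adjusted p = 0.0242, 0.0231 and 0.0448). Without single libraries the first 2 of these lost their calls in 4 cases each and LOC103963865 in all 6 (adjusted p up to 0.0791, 0.0668 and 0.119). The call of LOC103963865 also ended in limma with 0.1 added to the FPKM (adjusted p = 0.0535). LOC103962994 (ABCG32-like), whose Arabidopsis namesake exports cutin precursors, fell from 22.8 ± 6.47 to 2.85 ± 1.30 FPKM (SD, n = 3), with an edgeR adjusted p of 0.00821. The other tested ABCG32-like gene, LOC103960664, named after its values were seen, had 8.15 ± 1.11 FPKM in untreated and 13.3 ± 3.92 FPKM in bagged skin. Its log2 fold change was 0.70 ± 0.21 and missed the threshold (edgeR adjusted p = 0.144).

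**Figure D5:**
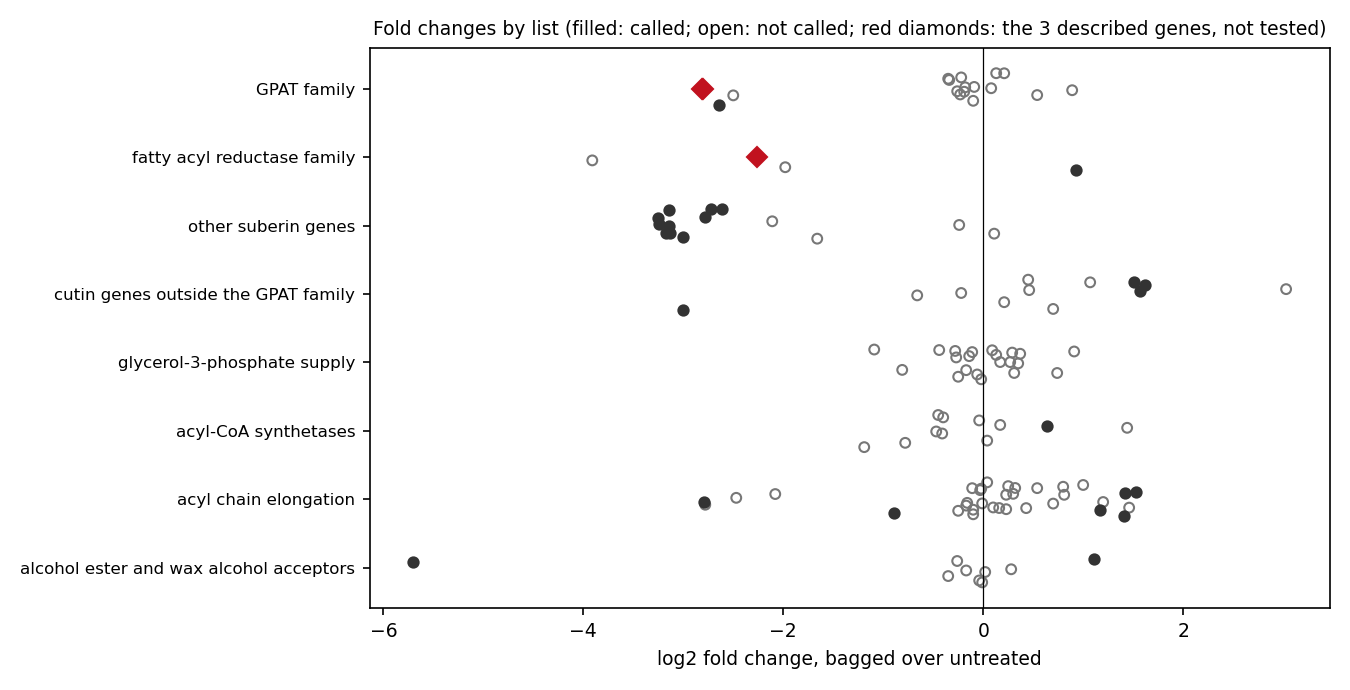
Log2 fold change of bagged over untreated skin (x axis) for each tested gene of each list (rows), with filled points for called genes (edgeR adjusted p below 0.05), open points for others, and red diamonds for the 3 described genes, for which no test is given. The position of the lowest point, LOC103928843, depends on the prior count because its bagged libraries held 0, 0 and 1 counts. Both GPAT5-like genes lie at -2.80 and -2.81 among suberin genes at a median of -2.89. The 16 other tested genes of the GPAT list, with its chloroplast and 1-acyl-glycerol-3-phosphate acyltransferase genes, have a median of -0.18. The 8 of them with a GPAT number have a median of -0.09.

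The profile of each gene over the 6 libraries was compared with those of the 14707 other tested genes that had a description and an average log2 CPM of at least 2, by the root mean square difference of log2 CPM after centring each gene on its own mean. For each GPAT5-like gene the nearest was the other one, at 0.07 log2 units. The next for both were LOC108865363 (germin-like protein subfamily 1 member 11), LOC103929739 (cytochrome P450 CYP736A12-like), LOC103963631 (purple acid phosphatase 22-like) and LOC103948870 (epoxide hydrolase 4-like), at 0.077 to 0.136. Epoxide hydrolases act on epoxy fatty acids among other substrates. LOC103931004 ranked 81 from LOC103935642 and 79 from LOC103942961, at 0.40 and 0.41 log2 units.

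Nearest to the reductase were LOC103948026 (ABC transporter C family member 3-like, 0.106 log2 units), a short chain dehydrogenase gene without a symbol on scaffold NW_008988717.1 from 10842 to 23500 (0.13), LOC103938711 (plasma membrane ATPase 4-like, 0.153), LOC103951421 (indole-3-acetate O-methyltransferase 1-like, 0.174) and LOC103942958 (AT-hook motif nuclear-localized protein 15-like, 0.199). The closest suberin gene to LOC103935642 was the feruloyl transferase-like gene LOC103964024 at 0.14, and the closest to LOC103931004 was the ABCG6-like gene LOC103936749 at 0.28, both named after their values were seen. The distances are taken over all 6 libraries, so they largely restate the difference between groups on which the 3 genes were chosen, and are given as a description.

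The 2 GPAT5-like genes sit in stretches of like gene content on their scaffolds, which was looked for after the neighbours had been seen. Of the 12 genes next to each on either side, LOC103942961 being the last gene of its scaffold, 5 descriptions occurred at both loci, in reversed order and on opposite strands. They are pumilio homolog, ribulose bisphosphate carboxylase/oxygenase activase, LOB domain-containing protein 33, AT-hook motif nuclear-localized protein 15 and a tandem of ARF guanine-nucleotide exchange factor GNOM genes. The neighbour next to LOC103935642 is LOC103935649 (pumilio homolog 2-like, 9698 bases away) and the one next to LOC103942961 is LOC103942960 (pumilio homolog 1-like, 7705 bases away). Their log2 fold changes were 0.03 ± 0.08 and -0.12 ± 0.10, neither past the threshold. LOC103935623, on the other side of LOC103935642 (E3 ubiquitin-protein ligase RHC2A, 3903 bases away), had 0.14 ± 0.16.

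At each locus 1 tested flanking gene was called, out of 22 and 7 tested, and at both it was the gene for an AT-hook motif nuclear-localized protein 15-like DNA-binding protein. Of all tested genes 2.67% were called in either direction, and whether genes of a locus change together was not tested. LOC103942958 (1430610 to 1433496, at the locus of LOC103942961 but not adjacent to it) had 16.8 ± 3.49 CPM in untreated and 3.68 ± 0.279 CPM in bagged skin (SD, n = 3). It fell by 2.19 ± 0.19 on the log2 scale (edgeR adjusted p = 0.0058). Its counterpart LOC103935719 (429919 to 431456, at the locus of LOC103935642 but not adjacent to it) had 2.58 ± 0.472 and 0.275 ± 0.149 CPM. Its fitted change was -3.18 ± 0.43 (edgeR adjusted p = 0.0136), and it missed the threshold without bagged replicate 2 (adjusted p = 0.0533). At both loci the genes between them and the GPAT5-like gene included the activase and LOB domain genes, of which both LOB domain genes and the activase gene LOC103943009 had no count in any library. The activase gene LOC103935705 had a log2 fold change of -0.56 ± 0.22 (adjusted p = 0.265).

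The reductase has a different surrounding. Its span of 6874 bases holds a listed transcript of 1883 bases, and no other listed gene overlaps it. The neighbour 10122 bases away on the other strand, LOC103931003, is listed only with the male sterility protein domain that fatty acyl-CoA reductases carry, and had no count in any library. The table gives that domain to 8 genes, the 7 above and LOC103931003. On the other side lies LOC103931009, a pentatricopeptide repeat gene 48491 bases away, with a log2 fold change of -0.66 ± 0.49 that missed the threshold.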

How the data were processed

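Counts per gene and library were used as the authors deposited them, whole reads without normalization, per the file headers. The FPKM are the authors' own, per the file headers, and were used to compare genes with each other. The authors' deposited log2 fold changes were quoted for the 3 genes only. Their p-values, deposited in the same table, and their group means, a scaled signal per the file headers, were not used. The submitters' processing notes name HISAT2 for alignment. For counting tool, strand setting, genome build and annotation the state is the same: not given in the sources used here. Scaffolds and positions are therefore those of the deposited table, which pairs symbols with descriptions.

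The counts were fitted with edgeR 4.0.16 in R 4.3.3 (filterByExpr with a minimum count of 10 and a minimum total of 15, TMM factors, quasi-likelihood test, no covariate), which left 25139 of 42933 genes (9356 of the 42933 had no count in any library). Called means a Benjamini-Hochberg adjusted p below 0.05 over all tested genes. Standard errors were taken from each log2 fold change and its F statistic (their ratio, with the root of F). The common biological coefficient of variation was 20.1%. Libraries of 1 group differed by more than counting error (chi-square over its degrees of freedom between 11.67 and 19.35). The fit was tested on simulated data.

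The genes and lists were chosen with earlier results of these data known. Lists are text patterns on descriptions. Named genes were the 3 genes, every tested GPAT or reductase gene called or with a mean FPKM of at least 1, up to 3 called genes without overlap and the most abundant gene of each other list, the 5 nearest profiles and the nearest neighbours; others are marked. Profiles used log2 CPM with a prior count of 2. Alternatives were RLE scaling, library size alone, 2 other filters, the replicate number as a block, each library left out, DESeq2 1.42.0, and limma 3.58.1 with pseudocounts of 1 and 0.1 added to the FPKM before the log2 (at least 3 libraries with 1 FPKM or more). No sequence is shown.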

Additional observations from a re-analysis of the deposited data

How the results depend on the processing

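The log2 fold changes of LOC103935642, LOC103942961 and LOC103931004 kept their direction under every alternative run. With single libraries left out they ranged from -3.22 to -2.50, from -3.21 to -2.55 and from -2.36 to -2.02. On log2(FPKM + 1) they were -2.16, -2.10 and -1.95, a scale on which the added 1 shrinks the change of low genes.

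Over all genes, 135 (without bagged replicate 1) to 386 were lower and 70 (without the same library) to 306 higher with single libraries left out, against 426 and 244, and DESeq2 called 767 lower and 763 higher. With single libraries left out, the lower and higher counts ranged over 0 to 1 and 0 to 0 for GPAT, 0 to 1 and 0 to 1 for reductases, 7 to 10 and 0 to 0 for suberin, 1 to 2 and 0 to 3 for cutin (3 higher only without untreated replicate 3), 0 to 0 and 0 to 1 for acyl-CoA synthetases, 0 to 3 and 1 to 3 for elongation and 0 to 1 and 0 to 1 for alcohol acyltransferases; those of glycerol-3-phosphate supply stayed at 0.

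DESeq2 called 2 GPAT genes lower, 2 cutin genes lower and 6 higher, 1 supply gene lower, 1 acyl-CoA synthetase lower and 2 higher, and 6 elongation genes lower and 8 higher. Both limma fits called 1 reductase lower and no alcohol acyltransferase either way (0 and 0). With library size alone 2 cutin genes were lower and 0 alcohol acyltransferases higher. With no low-count filter 2 cutin and 4 elongation genes were lower, and under the CPM filter 0 alcohol acyltransferases were lower. LOC103928843 was left out by that filter (at least 1 CPM in 3 libraries), having 1.79, 1.27 and 0.928 CPM in untreated replicates 1 to 3. The limma fits also left it out, its highest value being 0.916 FPKM. The causes of the other shifts were not tested.

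Same-numbered libraries deviated together with correlations of -0.0444, 0.083 and 0.0567, so the numbers were not taken to pair them. With the replicate block the log2 fold changes of the 3 genes were -2.81, -2.83 and -2.23, 2 acyl-CoA synthetases and 0 alcohol acyltransferases were higher, and 1 elongation gene was lower. The block ended the calls of LOC103966995 (adjusted p = 0.0785) and LOC103928845 (adjusted p = 0.0875).

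Restricting the family to the 19 numbered GPAT genes moved the share of the GPAT5-like genes to 13.4% in untreated and 2.11% in bagged skin. Leaving out single libraries moved no family share by more than its spread between replicates. Bagged counts of 19 to 68 limit the precision of the GPAT5-like levels under the bag.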
